A study of Mus musculus with 33 samples.

Results

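Tongues of E13.5 mouse embryos that express Zac1 (Plagl1) from both alleles were compared with wild type tongues of the same age. Of the 33 samples in the series, 6 belong to this comparison, 3 biallelic and 3 wild type. The biallelic embryos are described in the labels as Zac1o knockout mice that express Zac1 biallelically, and the controls as wild type. The labels name neither strain, sex nor litter, nor how many tongues went into a library. The members are the 11869 genes, of 27825 in the E13.5 table, that reached log2 RPM 0 (1 RPM, where RPM is reads scaled by the read total of the library) in at least 3 of the 6 libraries. The table covers chromosomes 1 to 19, and other chromosomes were not analysed here. RNA came from whole tongue, so fewer cells of a type and less RNA per cell cannot be told apart. The labels call the 3 libraries of a genotype biological replicates without naming the animals.

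Plagl1 encodes a zinc finger transcription factor that restrains proliferation and is imprinted: in most tissues the maternal copy is methylated at its promoter in the oocyte and stays silent, and RNA comes from the paternal copy. Loss of that imprint in humans is a cause of transient neonatal diabetes, in which an enlarged tongue is a recognised feature. The embryonic tongue is built from muscle precursors that migrate in from the occipital somites, cranial neural crest cells that form its connective tissue, and a covering epithelium in which taste papillae are patterned. Plagl1 is known to bind GC-rich DNA, including the palindrome GGGGCCCC.

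Promoter sequence is shown for Plagl1, whose dosage differs, for Slc7a10, the gene with the highest fitted log2 fold change among the genes named below, and for Hand2 and Nrp1, a pair of genes with lower levels in the biallelic tongues. Sequences are from RefSeq on GRCm38.p6, 5′ to 3′ on the strand of the gene, 250 bases before to 50 bases after the annotated start. Capitals mark GGGGCC on either strand, and overlapping matches are merged.
Plagl1, chr10:13090582-13090881, plus strand: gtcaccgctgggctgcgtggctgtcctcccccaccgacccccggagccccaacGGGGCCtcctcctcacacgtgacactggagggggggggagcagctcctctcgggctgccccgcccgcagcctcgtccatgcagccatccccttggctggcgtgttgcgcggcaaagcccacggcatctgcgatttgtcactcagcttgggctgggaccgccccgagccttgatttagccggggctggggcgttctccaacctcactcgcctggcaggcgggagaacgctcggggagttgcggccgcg
Slc7a10, chr7:35186135-35186434, plus strand: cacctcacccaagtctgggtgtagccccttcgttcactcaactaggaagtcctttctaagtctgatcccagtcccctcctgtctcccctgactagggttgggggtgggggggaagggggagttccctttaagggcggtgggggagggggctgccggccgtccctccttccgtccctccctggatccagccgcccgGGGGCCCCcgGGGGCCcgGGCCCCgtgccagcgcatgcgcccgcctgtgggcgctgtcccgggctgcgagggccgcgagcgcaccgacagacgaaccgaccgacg
Hand2, chr8:57320733-57321032, plus strand: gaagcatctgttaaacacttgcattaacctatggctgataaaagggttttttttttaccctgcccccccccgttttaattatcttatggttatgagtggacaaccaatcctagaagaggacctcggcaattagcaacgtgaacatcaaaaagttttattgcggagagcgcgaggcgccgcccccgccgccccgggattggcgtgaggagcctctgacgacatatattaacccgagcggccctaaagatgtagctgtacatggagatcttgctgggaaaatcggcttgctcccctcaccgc
Nrp1, chr8:128358823-128359122, plus strand: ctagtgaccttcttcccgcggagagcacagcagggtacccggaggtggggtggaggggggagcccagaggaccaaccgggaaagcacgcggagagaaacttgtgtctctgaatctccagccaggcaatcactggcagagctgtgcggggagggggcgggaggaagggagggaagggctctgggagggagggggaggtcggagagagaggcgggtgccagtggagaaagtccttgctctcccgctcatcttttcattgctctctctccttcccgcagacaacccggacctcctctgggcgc
The Slc7a10 window held 4 matches to GGGGCC, counting both strands, among them the full palindrome GGGGCCCC, close before the start. The Plagl1 window held 1 match, and the windows of Hand2 and Nrp1 held 0. GGGGCC lay in 25.0% of 32851 RefSeq promoter windows of this length, and the palindrome in 1.08%. Among the 30 genes of smallest p described below, 6 of the 11 with higher and 3 of the 10 with lower levels that have a window held GGGGCC, against 42.9% of the 8344 tested genes with a window. The palindrome lay in 1 of those 11, Slc7a10 itself, and in 0 of the 10, against 1.86% of the 8344. A match describes the letters in the window and is not a measured binding site.

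The libraries were of like depth. Read totals behind the RPM values ran from 36832717 to 52425994, and 3 reads corresponded to 0.0572 to 0.0814 RPM (counting error only). The labelled tissue was checked against defining markers: Myog was at 55.9 to 99.98 RPM, the epithelial gene Trp63 at 44.9 to 86.5 RPM and Pdgfra of the mesenchyme at 57.3 to 148.1 RPM. Of markers of neighbouring or other organs, Alb of the liver was at most 0.401 RPM, and Nppa (heart), Sftpc (lung) and Prl3d1 (placenta) were at 0 reads in all 6 libraries. Afp, another liver gene, reached 2.39 RPM in biallelic replicate 2 and 1.19 RPM in wild type replicate 1, and the cardiac factor Nkx2-5 was at 2.18 to 5.96 RPM in all 6. Of the cartilage markers, Col2a1 was at 21.8 to 44.5 RPM in all 6, and Acan at 0.185 to 2.48 RPM, highest in biallelic replicate 3. Dlx5, a gene of lower jaw mesenchyme that was listed with Pdgfra as a crest mesenchyme marker, was at most 0.275 RPM.

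Biallelic replicate 3 stood apart from the other 5 libraries. On the first principal component, which held 43.4% of the variance, it lay at 47.5, and the others lay between -19.9 and -2.08. At least 1 log2 unit separated it from the nearest other library for 128 genes above and 121 below, where no other library had more than 4 genes above, and wild type replicate 1 had 104 below. Slc16a3, the lactate exporter, was at 110.6 RPM in this library and at 5.74 to 6.997 RPM in the other 5. Bnip3, a mitophagy gene known to respond to low oxygen, was at 155.5 RPM against 13.8 to 17.1 RPM. The glucose transporter Slc2a1 was at 365.9 RPM against 34.7 to 49.96 RPM, and Vegfa, the angiogenic growth factor, at 73.1 RPM against 13.4 to 22.5 RPM. The embryonic globin Hbb-bh1 was at 141.9 RPM against 8.56 to 20.02 RPM. On the low side were fast muscle genes: Tnni2, a troponin subunit, was at 2.56 RPM against 7.04 to 16.6 RPM, and Mylpf, a myosin light chain, at 21.5 RPM against 64.2 to 113.4 RPM. Mat2a, which makes the methyl donor S-adenosylmethionine, was at 10.6 RPM against 45.0 to 54.4 RPM. Histone rows Hist4h4 and Hist2h2bb were also low, at 132.3 and 80.5 RPM against 322.2 to 379.4 and 207.7 to 297.3 RPM. These genes were picked for their distance, so their values carry no test. The main counts, and the lists whose count or median turned on this library, are given with and without it.

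**Figure D1:**
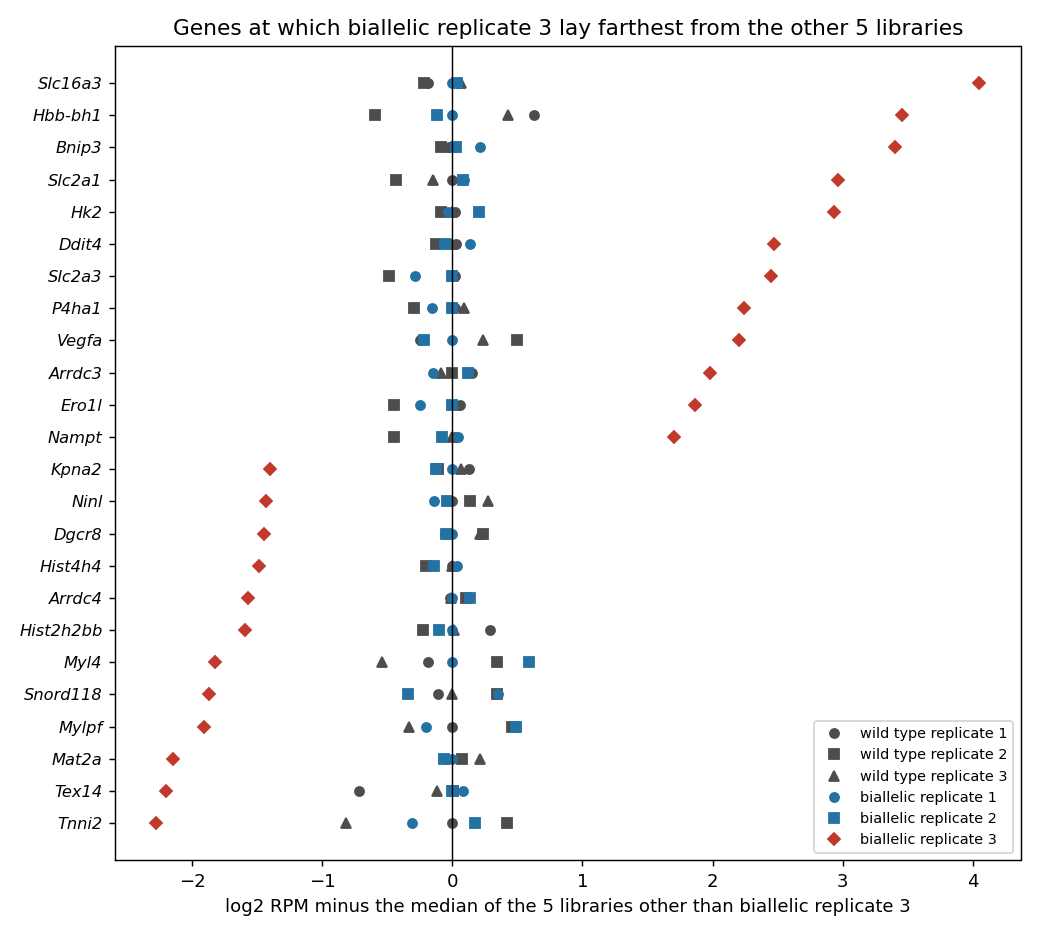
Log2 RPM of 24 genes (rows) in each library, minus the median of the 5 libraries other than biallelic replicate 3. Diamonds are biallelic replicate 3, and grey and blue points are the wild type and the other biallelic libraries. The genes were chosen as the 12 farthest in each direction, from Slc16a3 at the top to Tnni2 at the bottom.

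Plagl1 (ENSMUSG00000019817, chromosome 10, 13090691 to 13131694 on GRCm38 in the table, plus strand, protein coding) was at 66.1, 104.9 and 91.7 RPM in wild type replicates 1 to 3 and at 157.3, 177.3 and 274.9 RPM in biallelic replicates 1 to 3. Every biallelic library lay above every wild type library. The log2 fold change was 1.20 (SE 0.23), and 0.96 (SE 0.18) without biallelic replicate 3. As a single gene, the exact two-sided permutation p was 0.1, the smallest that 3 against 3 libraries allow. Over all genes, limma gave an adjusted p of 0.992. The effect at E13.5 minus that at P0 was 0.17 (SE 0.29), and minus that at P20 it was -0.10 (SE 0.29), with adjusted p of 0.967 and 0.999 in limma. The relatives Plag1 and Plagl2, transcription factors with similar zinc fingers, had log2 fold changes of 0.01 (SE 0.19) and -0.18 (SE 0.17), and their groups overlapped.

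No gene passed the threshold of 0.05 on limma's adjusted p over the 11869 genes tested (0.0%), and the smallest adjusted p was 0.917. At an unadjusted p under 0.05 there were 386 genes (3.25%), of which 93 (0.784%) were higher and 293 (2.47%) lower in the biallelic tongues. Groups did not overlap for 2.43% of genes with higher and 7.69% with lower biallelic values. The median log2 fold change of all genes was -0.06, and 62.0% of genes had a negative value. The excess of lower genes depended on the scaling: after centring each library on its median, 199 genes were higher and 125 lower at an unadjusted p under 0.05. Voom on the whole reads recovered from the RPM values also called 0 genes. Without biallelic replicate 3 the numbers at an unadjusted p under 0.05 were 97 higher (0.817%) and 466 lower (3.93%), and limma again called 0. The excess of lower genes also depended on biallelic replicate 1. Without that library 215 genes were higher and 242 lower, and the median log2 fold change was -0.02. Without wild type replicate 3 the total fell to 165. With weights estimated for each library, limma called 667 genes, and those weights ran from 0.243 for biallelic replicate 3 to 5.21 for wild type replicate 3.

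The 15 genes of smallest p in each direction were taken up next. Their groups do not overlap in all 30 cases, against the 2.43% and 7.69% above, and the choice by p favours such genes. None passed the adjusted threshold.

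**Figure D2:**
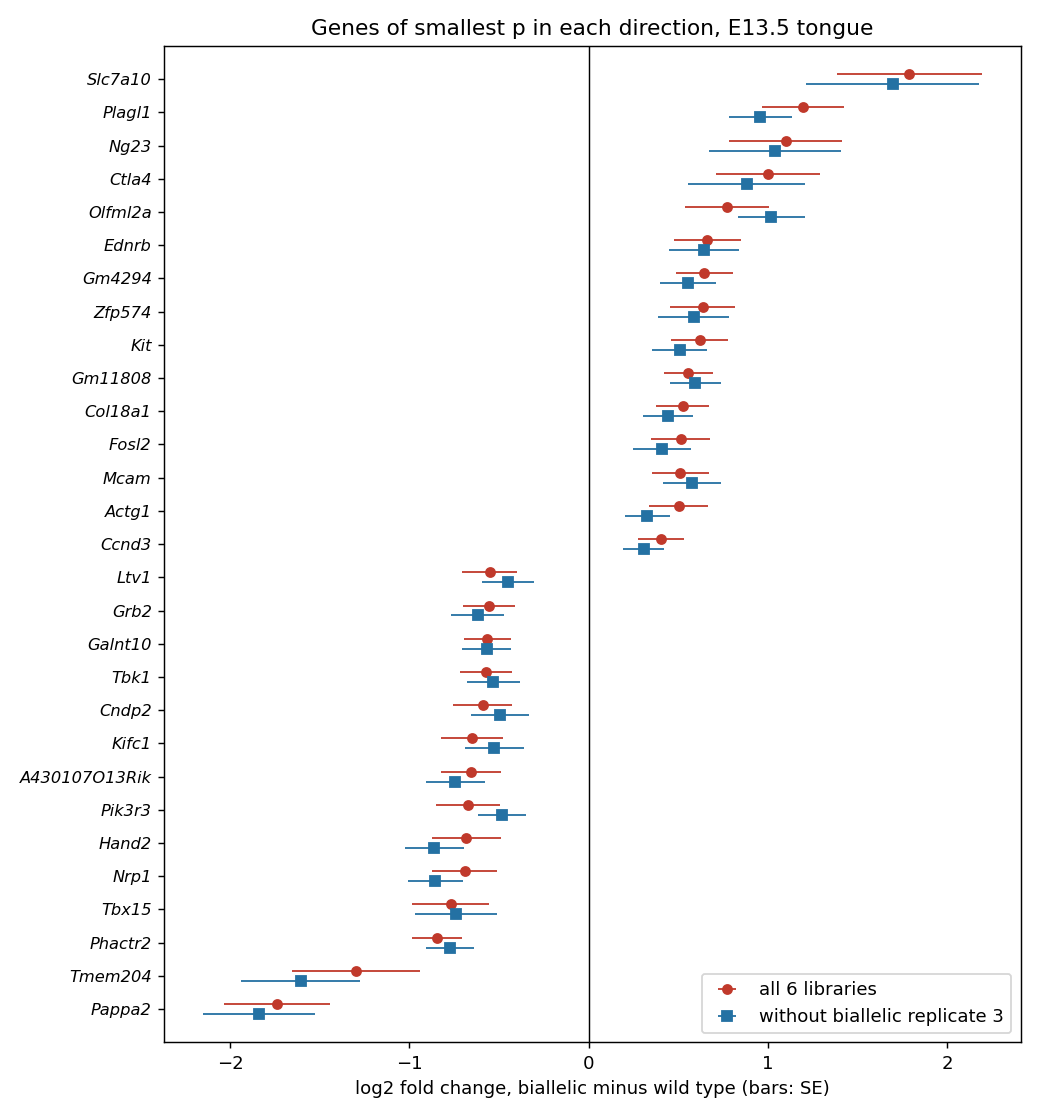
Log2 fold change, biallelic minus wild type, of 29 of the 30 genes of smallest p (bars are standard errors). Circles use all 6 libraries and squares leave out biallelic replicate 3. The values run from -1.74 for Pappa2 to 1.79 for Slc7a10.

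Among genes with higher levels, Slc7a10 (ENSMUSG00000030495, chromosome 7, 35186385 to 35201114), which carries small neutral amino acids such as glycine, alanine and serine, had the largest fold change. It was at 1.11, 0.553 and 0.592 RPM in the wild type libraries and at 2.15, 2.50 and 2.81 RPM in the biallelic libraries. These values rest on 28 to 43 and 92 to 135 reads. The groups did not overlap, and the log2 fold change was 1.79 (SE 0.40), or 1.70 (SE 0.48) without biallelic replicate 3. Lrp3, which overlaps Slc7a10 on the other strand, had a log2 fold change of 0.01 (SE 0.16). At P0 and P20, in libraries not used at E13.5, Slc7a10 had log2 fold changes of 1.47 (SE 0.35) and 2.12 (SE 0.36).

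Kit and Ednrb, receptors of pigment cells and other neural crest and blood lineages, were both higher. Kit was at 11.4 to 13.2 RPM in the wild type and 15.8 to 22.0 RPM in the biallelic libraries, a log2 fold change of 0.62 (SE 0.16). Ednrb, the endothelin receptor, was at 15.95 to 23.3 RPM and 24.4 to 36.4 RPM, a log2 fold change of 0.66 (SE 0.19). Col18a1, the basement membrane collagen that yields endostatin, was at 110.7, 83.5 and 97.3 RPM in wild type and at 125.7, 136.9 and 155.6 RPM in biallelic libraries (log2 fold change 0.52, SE 0.15). Mcam, an adhesion molecule of vessel walls and Schwann cell precursors, had 0.51 (SE 0.16), and Olfml2a, a secreted olfactomedin protein, 0.77 (SE 0.23). Olfml2a was lowest among the biallelic libraries in replicate 3, at 6.45 RPM beside 10.5 and 11.1 RPM, and without that library its log2 fold change was 1.02 (SE 0.19). Ctla4, an inhibitory receptor of T cells, was at 1.42 to 2.15 RPM and 2.85 to 4.14 RPM (log2 fold change 1.002, SE 0.29). The remaining named genes were Ccnd3, a D-type cyclin (0.40), the AP-1 subunit Fosl2 (0.51), the cytoplasmic actin Actg1 (0.50), Zfp574 (0.64), Ng23 (1.10), Gm4294 (0.65) and Gm11808 (0.55). Actg1 has near-identical copies in the genome, and how reads shared with them were counted is not given, so its value is uncertain.

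Among genes with lower levels, Pappa2 (ENSMUSG00000073530, chromosome 1, minus strand), the protease that cleaves Igfbp5 and Igfbp3 and so frees insulin-like growth factors, had the largest difference. It was at 6.27, 3.57 and 6.28 RPM in the wild type and at 1.39, 1.52 and 1.79 RPM in the biallelic libraries. Every biallelic library was below every wild type library, a log2 fold change of -1.74 (SE 0.30). Without biallelic replicate 3 the value was -1.84 (SE 0.31). At P0 and P20 Pappa2 had log2 fold changes of -0.30 (SE 0.15) and -0.67 (SE 0.39).

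Nrp1, a semaphorin and Vegf co-receptor, was at 33.6, 45.6 and 41.9 RPM in wild type and 20.4, 24.0 and 31.1 RPM in biallelic libraries (log2 fold change -0.69, SE 0.18). Hand2, a transcription factor of the lower jaw and tongue crest mesenchyme, was at 17.9, 17.1 and 23.2 RPM and 10.8, 10.3 and 15.3 RPM (-0.68, SE 0.19). In both genes the biallelic library nearest to wild type was replicate 3, and the log2 fold changes of Nrp1 and Hand2 without it were -0.86 and -0.86. Tbx15, a T-box factor of skeletal and muscle development, was at 5.45 to 8.41 RPM and 3.998 to 4.30 RPM (-0.77, SE 0.22). Tmem204, a membrane protein of endothelial cells, was at 2.80 to 4.74 RPM and 1.11 to 2.44 RPM (-1.30, SE 0.36). Signalling genes in this set were the adaptor Grb2 (-0.55), the PI3-kinase regulatory subunit Pik3r3 (-0.67) and the innate immune kinase Tbk1 (-0.57). Also in the set were the glycosyltransferase Galnt10 (-0.57), the mitotic kinesin Kifc1 (-0.65), the dipeptidase Cndp2 (-0.59), A430107O13Rik (-0.66), and the Plagl1 neighbours Ltv1 and Phactr2.

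**Figure D3:**
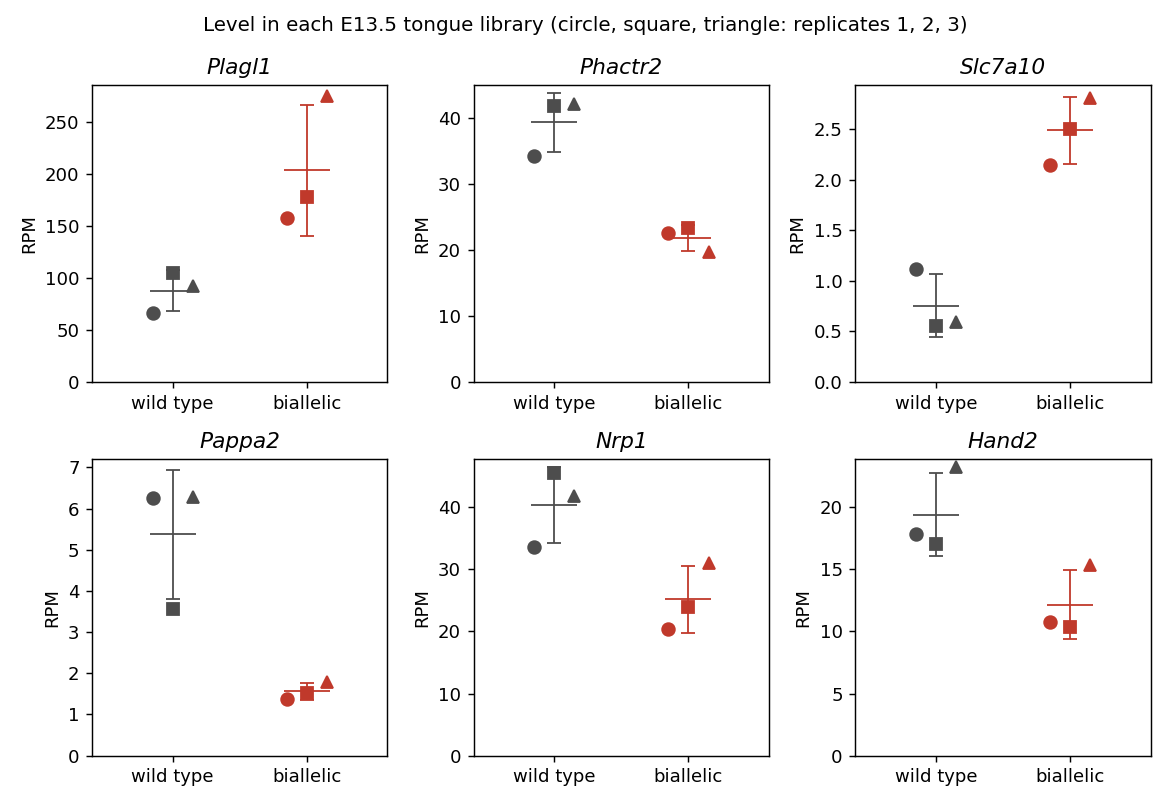
RPM in each library for 6 named genes, with the axis starting at 0. Circles, squares and triangles are replicates 1, 2 and 3, and the horizontal mark and bar are the mean and SD of 3 libraries. No panel has overlapping groups, and biallelic replicate 3 is the highest of its group in every panel but Phactr2, where it is the lowest.

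Genes on either side of Plagl1 were lower more often than higher. Of the 11 tested neighbours, 9 had negative values and the median log2 fold change was -0.31, beside -0.06 over all genes. At an unadjusted p under 0.05 there were 3 of 11, all lower, against 2.47% of all genes. Phactr2 (ENSMUSG00000062866, minus strand), an actin and phosphatase regulator 76.0 kb past Plagl1, was at 34.2, 41.8 and 42.1 RPM in wild type and 22.6, 23.3 and 19.7 RPM in biallelic libraries, with no overlap (log2 fold change -0.85, SE 0.14). Ltv1, a ribosome assembly factor that lies between them, was at 15.8 to 18.6 RPM and 10.1 to 13.005 RPM (-0.55, SE 0.15). Sf3b5, a splicing subunit on the other side of Plagl1 (at -81.5 kb), was at 23.4 to 26.3 RPM and 18.2 to 19.9 RPM (-0.38, SE 0.13).

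Farther out, Fuca2, a fucosidase at 367.8 kb, had -0.41 (SE 0.19) with no overlap, Pex3, a peroxisome assembly gene, -0.31 (SE 0.18), and Hivep2, a zinc finger factor, -0.35 (SE 0.18). Adat2 (-0.16), Aig1 (-0.002), Gpr126 (-0.03), Utrn (0.07) and Stx11 (0.13) all had overlapping groups. At P0 limma gave unadjusted p under 0.05 for 4 of the 11, all lower, where 3.3% of genes reached it in either direction. They were Phactr2 (-1.30), Fuca2 (-0.85), Pex3 (-0.42) and Ltv1 (-0.35). At P20 Phactr2 had -0.27 (SE 0.08).

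Genes of the craniofacial mesenchyme, mostly transcription factors of the neural crest that give jaw and tongue connective tissue its identity, had the lowest median of the 35 lists. Of 24 tested, 18 had negative values, with a median of -0.32. Without biallelic replicate 3, 22 of 24 were negative and the median was -0.58, beside -0.08 over all genes. At an unadjusted p under 0.05 there were 7 of 24, all lower, against 2.47% of all genes, and none passed the adjusted threshold.

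Besides Hand2, they included Alx4, Lhx6, Foxf2, Tfap2b and Pdgfrb. The homeobox gene Alx4 was at 16.7, 26.1 and 35.6 RPM in wild type and 10.7, 12.5 and 23.05 RPM in biallelic libraries, so the groups overlapped (log2 fold change -0.77, SE 0.32). Pdgfrb, the PDGF receptor of pericytes and mesenchyme, was at 22.1, 22.9 and 23.3 RPM and 11.2, 13.1 and 21.5 RPM (-0.63, SE 0.22). Without biallelic replicate 3 its log2 fold change was -0.91 (SE 0.14). Foxf2, a forkhead factor downstream of Hedgehog signals, was at 4.94 to 9.70 RPM and 4.29 to 5.10 RPM (-0.67, SE 0.26), and Tfap2b of the AP-2 family was at 2.40 to 3.11 RPM and 1.44 to 2.01 RPM (-0.69, SE 0.29). Lhx6, a LIM homeobox gene, had -0.76 (SE 0.33).

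General mesenchyme markers overlapped between the groups. Pdgfra was at 57.3 to 101.7 RPM in wild type and 63.9 to 148.1 RPM in biallelic libraries (0.13, SE 0.31), and Twist1 at 7.46 to 12.03 RPM and 7.98 to 15.3 RPM (0.15, SE 0.26). Prrx1 was at 11.03, 33.95 and 43.4 RPM and 12.8, 20.1 and 33.4 RPM (-0.31, SE 0.47). The 3 values were -0.24 (SE 0.21), -0.12 (SE 0.21) and -0.66 (SE 0.44) without biallelic replicate 3. The mean log2 RPM over the list was 2.46, 2.84 and 3.09 in wild type replicates 1 to 3 and 2.17, 2.35 and 2.87 in biallelic replicates 1 to 3. Thus wild type replicate 1 lay below biallelic replicate 3, and the groups overlapped on the list as a whole. Leaving out any library in turn gave medians from -0.58 to -0.21.

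At P0 the same list had mostly positive values. Of 20 tested there 16 (80.0%) were higher in the biallelic tongues, with a median of 0.32, beside 62.9% and 0.04 over all genes. Alx4 had 0.54 (SE 0.13) and Hand2 0.49 (SE 0.17). In the fit that tests the difference itself, 14 of 15 members had a more negative effect at E13.5 than at P0, as had 7326 of the 10929 genes in that fit. An unadjusted p under 0.05 was reached by 6 of the 15 members, against 5.33% of 10929 genes. The differences were -1.32 (SE 0.38) for Alx4, -1.17 (SE 0.38) for Hand2, -0.995 (SE 0.28) for Foxf2 and -0.89 (SE 0.26) for Pdgfrb. No difference passed limma's adjusted threshold (0.0% of genes), and the smallest adjusted p was 0.901. Of 16 members tested at P20, 7 (43.75%) were higher, with a median of -0.04, beside 44.9% and -0.01 over all genes. The effect was more negative at E13.5 than at P20 for 11 of 15 members, as for 6426 of the 10929 genes. Of these members 1 had an unadjusted p under 0.05 for that difference, against 3.55% of genes. RNA at E13.5 was extracted with a different kit from that used at P0 and P20, so stage and extraction cannot be told apart.

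**Figure D4:**
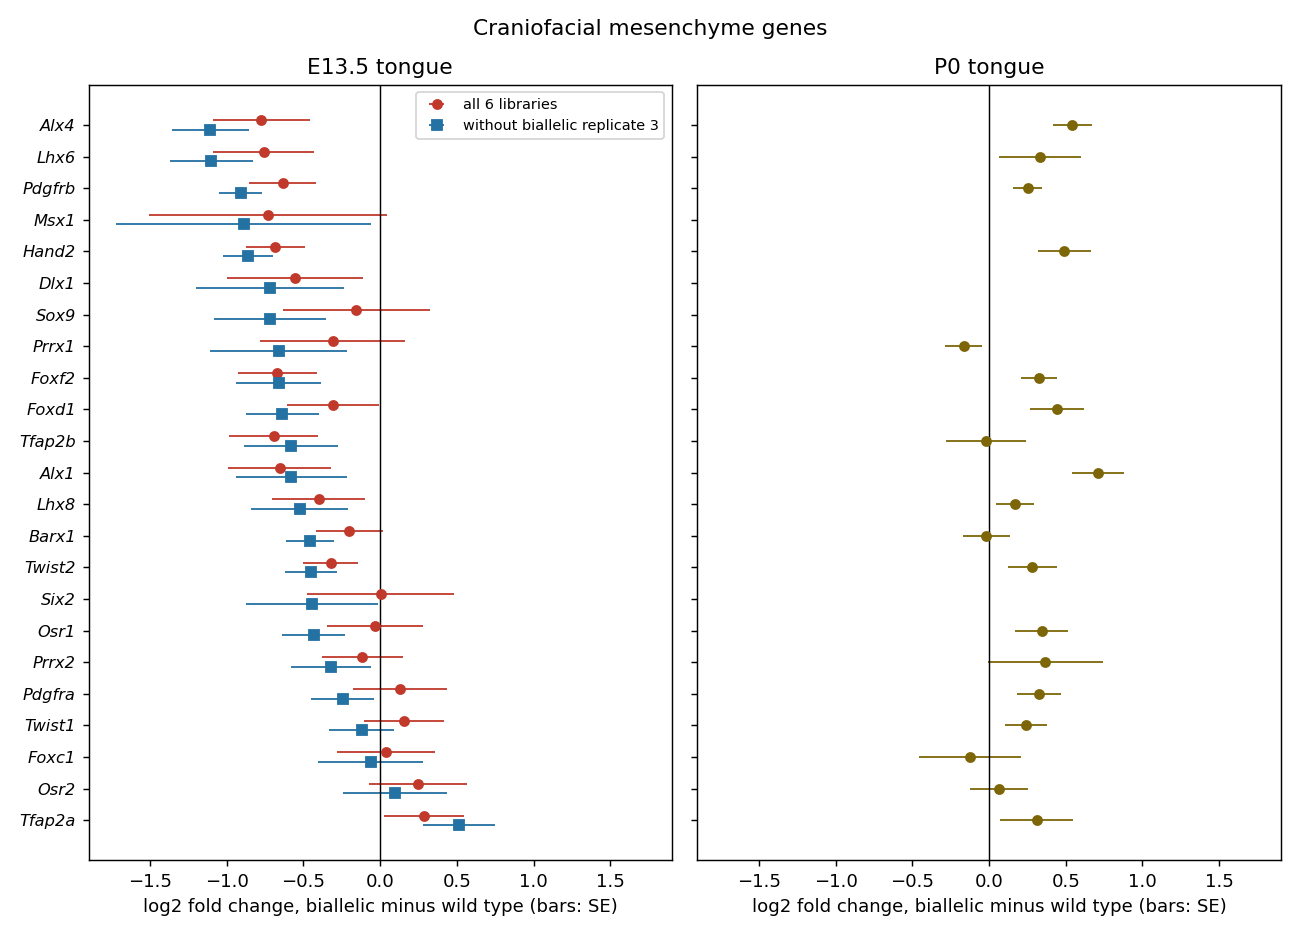
Log2 fold change, biallelic minus wild type, of 23 of the 24 tested craniofacial mesenchyme genes at E13.5 (left, circles with all 6 libraries and squares without biallelic replicate 3) and of 19 of the 20 tested at P0 (right). Bars are standard errors. Over all tested members the medians are -0.32 and -0.58 at E13.5 and 0.32 at P0.

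In Hedgehog signalling, the pathway by which epithelial Shh patterns this mesenchyme, 11 of 17 genes had negative values (median -0.08). That is 64.7%, beside 62.0% of all genes. Without biallelic replicate 3 there were again 11 (median -0.17), beside 67.5% of all genes. Bcl2, a survival gene, was at 22.97 to 28.7 RPM in wild type and 19.4 to 21.1 RPM in biallelic libraries (-0.38, SE 0.14). The pathway readouts Gli1 and Ptch1 had -0.25 (SE 0.16) and -0.08 (SE 0.18). The groups did not overlap for Gli1, at 10.8 to 13.47 RPM in wild type and 8.85 to 10.7 RPM in biallelic libraries, and did overlap for Ptch1. In Wnt signalling 15 of 24 were positive (median 0.08), and 13 without biallelic replicate 3 (median 0.02). Notum, a secreted Wnt inhibitor, was at 3.64 to 7.02 RPM and 7.62 to 9.10 RPM (0.68, SE 0.25). Wnt5a, a ligand for tongue outgrowth, was at 22.9 to 35.6 RPM and 18.8 to 23.7 RPM (-0.45, SE 0.18), with overlap. The groups overlapped for the mesenchymal growth factor Fgf10, at 3.78 to 4.90 RPM in wild type and 4.64 RPM in biallelic replicate 3. The other biallelic libraries were at 1.62 and 2.61 RPM. Tendon and connective tissue genes were lower in 7 of 8 cases (median -0.12, and -0.35 without biallelic replicate 3), with Scx, the tendon factor, at -0.50 (SE 0.22). In BMP, TGF-beta and activin signalling 14 of 25 were positive (median 0.04), and 8 without biallelic replicate 3 (median -0.10).

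In the growth factor axis around Igf2 no gene passed the adjusted threshold. Of 10 IGF ligands and receptors tested, 7 were positive (median 0.15), and 4 without biallelic replicate 3 (median -0.16). Igf2 itself, an imprinted growth factor, was at 366.6, 311.8 and 294.3 RPM in wild type and 327.1, 325.6 and 500.9 RPM in biallelic libraries (log2 fold change 0.22, SE 0.20, and 0.02 without biallelic replicate 3). Igf1r had -0.17 (SE 0.15) and Igf2r, which clears Igf2, 0.06 (SE 0.24). Of 13 binding proteins, proteases and related genes, 10 were positive (median 0.15), and 6 without biallelic replicate 3 (median -0.01). Igfbp5, a binding protein that Pappa2 cleaves, was at 204.0, 254.1 and 211.2 RPM and 273.6, 299.5 and 486.1 RPM, with no overlap (0.62, SE 0.22). Without biallelic replicate 3 its log2 fold change was 0.37 (SE 0.14). Pappa, the relative of Pappa2, was at 1.63 to 7.04 RPM and 3.97 to 16.7 RPM (0.84, SE 0.60), with overlap.

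The imprinted lists turned on biallelic replicate 3. With all libraries, of 23 paternally expressed genes tested 14 were positive (median 0.02), and of 22 maternally expressed genes 12 (median 0.01). In either list 0 genes were at an unadjusted p under 0.05, against 3.25% of all genes. When biallelic replicate 3 was left out, 16 of 23 paternally expressed (median -0.17) and 19 of 22 maternally expressed genes (median -0.15) were negative, beside 67.5% of all genes (median -0.08). At an unadjusted p under 0.05 there were then 1 higher and 3 lower paternally expressed genes and 1 lower maternally expressed gene. Over all genes the shares at that threshold were 0.817% higher and 3.93% lower. Among 18 genes that the literature has tied to Plagl1, the median was 0.08, and -0.16 without that library. The noncoding RNA H19 was at 2625 to 3531 RPM in wild type and 2403 to 3376 RPM in biallelic libraries (-0.02, SE 0.32). The growth inhibitor Cdkn1c had 0.08 (SE 0.25) and Dlk1, a Notch-like ligand, 0.10 (SE 0.28). Magel2, Asb4 and Plekha4 were named for their p without biallelic replicate 3, in a fit whose adjusted p in limma was 0.298 or more for every gene. Magel2, of the Prader-Willi region, was at 61.7, 87.1 and 75.7 RPM and 120.8, 100.5 and 75.4 RPM (0.39, SE 0.19, and 0.57, SE 0.15, without biallelic replicate 3). Asb4, also imprinted, was at 21.3 to 26.8 RPM in wild type, 13.49 and 14.7 RPM in biallelic replicates 1 and 2 and 35.1 RPM in replicate 3. Plekha4 showed the reverse order, at 0.984 to 1.92 RPM in wild type, 3.70 and 4.53 RPM in biallelic replicates 1 and 2 and 0.687 RPM in replicate 3.

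Amino acid transporters, a list that includes Slc7a10, had values on both sides of 0, with 8 of 14 negative (median -0.04), and 11 without biallelic replicate 3 (median -0.15). Slc7a11, the cystine importer, was at 2.42 to 2.62 RPM in wild type and 0.901, 1.41 and 1.46 RPM in biallelic libraries (-1.02, SE 0.33), with no overlap. Slc7a5 and Slc3a2, the light and heavy chain of the large neutral transporter, had 0.03 (SE 0.18) and 0.13 (SE 0.28).

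In the muscle lineage, the progenitor factors Pax3 and Pax7 had values of opposite sign. Pax3, the factor of migrating precursors, was at 3.70, 5.80 and 4.33 RPM in wild type and 2.96, 1.49 and 2.33 RPM in biallelic libraries, with no overlap (-1.06, SE 0.31). Pax7, kept in fetal progenitors and later in satellite cells, was at 1.53, 5.65 and 1.86 RPM and 4.74, 4.13 and 6.52 RPM (0.996, SE 0.44), with overlap through wild type replicate 2. The determination factors Myod1, Myf5 and Myog had 0.01 (SE 0.27), 0.55 (SE 0.47) and -0.19 (SE 0.22), all with overlap. Of 23 regulators 12 were positive (median 0.01). At an unadjusted p under 0.05, 1 was higher and 1 lower, against 0.784% and 2.47% of all genes. Leaving out biallelic replicate 3 left 6 positive (median -0.18). At that threshold 0 were then higher and 6 lower, against 0.817% and 3.93% of all genes.

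Sarcomere genes were lower in 24 of 31 cases with all libraries (median -0.28) and in 13 of 31 without biallelic replicate 3 (median 0.06). The mean log2 RPM of the list was 4.66 to 5.41 in wild type, 4.84 and 5.32 in biallelic replicates 1 and 2 and 4.22 in replicate 3. Tnnt2, the cardiac troponin T of embryonic muscle, had -0.59 (SE 0.24), and the myosin chaperone Unc45b -0.56 (SE 0.23), both with overlapping groups. Genes of calcium handling and the synapse were lower in 18 of 22 cases (median -0.25, and -0.09 without replicate 3).

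**Figure D5:**
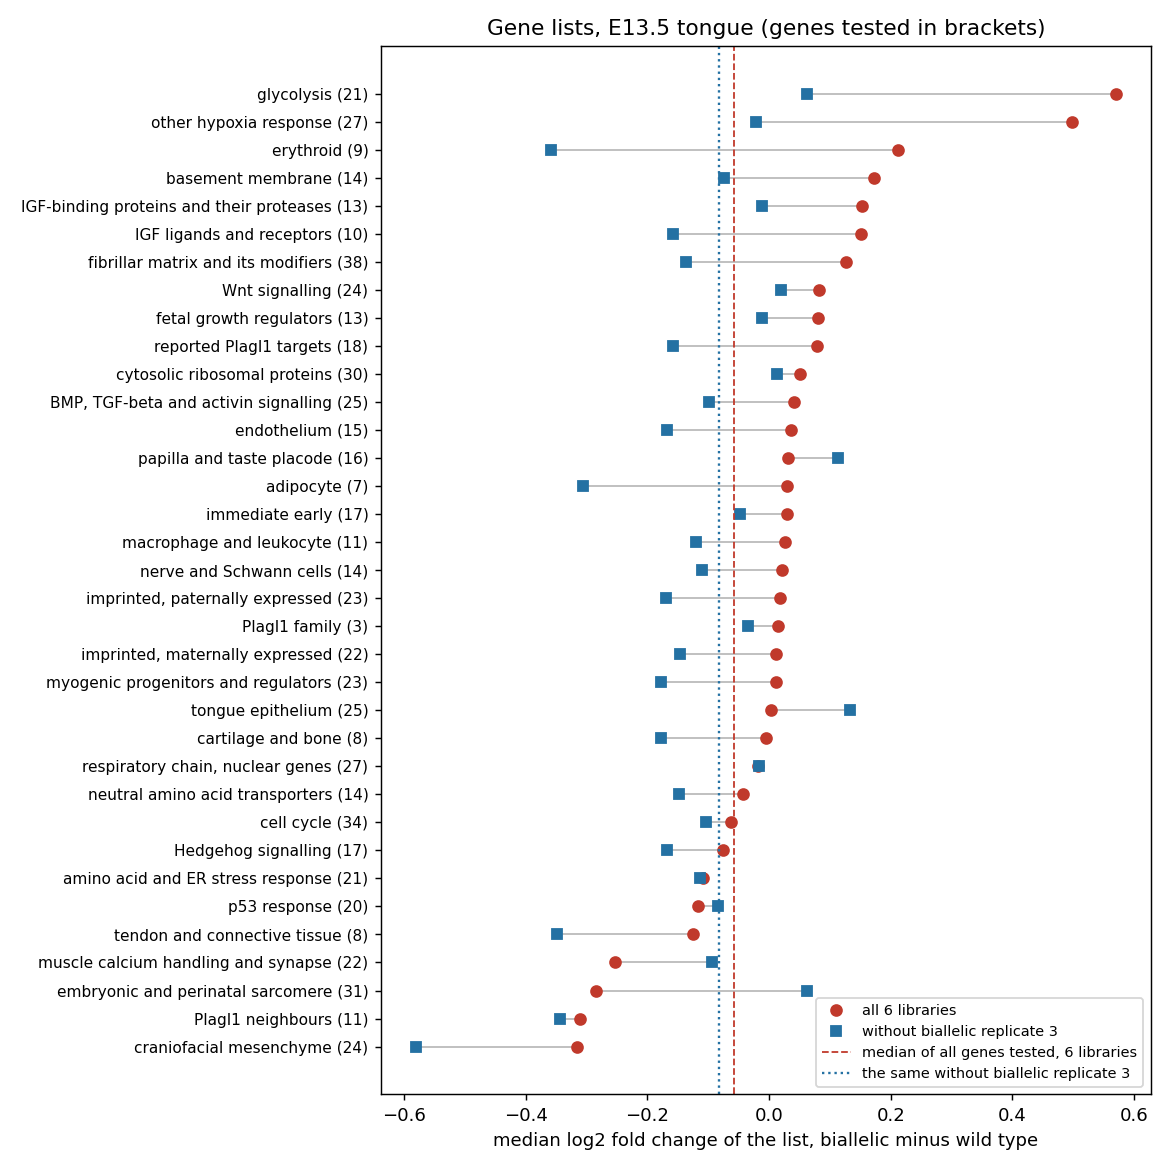
Median log2 fold change of each of 35 gene lists with all 6 libraries (circles) and without biallelic replicate 3 (squares). The vertical lines are the medians of all tested genes, -0.06 and -0.08. Glycolysis moves from 0.57 to 0.06 and sarcomere genes from -0.28 to 0.06, and craniofacial mesenchyme is lowest in both fits.

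Genes of glycolysis were higher in 20 of 21 cases (median 0.57), and other genes known to respond to low oxygen in 25 of 27 (median 0.50). The medians without biallelic replicate 3 were 0.06 and -0.02, with 16 of 21 and 11 of 27 genes higher, beside 32.5% of all genes and their median of -0.08. The mean log2 RPM of the glycolysis list was 3.93 to 4.10 in wild type, 4.05 and 4.16 in biallelic replicates 1 and 2 and 5.87 in replicate 3. Aldoa, the muscle aldolase, did not overlap between the groups, at 86.8 to 98.7 RPM in wild type and 108.2, 123.7 and 332.6 RPM in biallelic libraries. Its log2 fold change was 0.82 (SE 0.34) with all libraries and 0.31 (SE 0.12) without replicate 3. The same library was highest for the vessel markers Pecam1 (20.97 RPM beside 4.80 to 9.33 RPM) and Cdh5 (14.2 RPM beside 2.89 to 6.50 RPM), and for the embryonic globin Hbb-y (1374 RPM beside 241.5 to 711.5 RPM). Fibrillar matrix genes were higher in 27 of 38 cases (median 0.13) and in 12 without replicate 3 (median -0.14). Fbln5, an elastic fibre gene, was lower in both fits, at 12.3 to 16.1 RPM in wild type and 9.56 to 11.5 RPM in biallelic libraries (-0.48, SE 0.16). Lox and Thbs1, a collagen crosslinking enzyme and a matrix glycoprotein, had 0.91 (SE 0.39) and 0.62 (SE 0.27), with overlapping groups. Basement membrane genes were higher in 10 of 14 cases (median 0.17) and in 6 without replicate 3 (median -0.07). What sets this library apart was not tested.

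Lists for the other cell types that whole tongue holds had medians near that of all genes with all 6 libraries, except erythroid genes. Endothelial genes were higher in 9 of 15 cases (median 0.04), or 4 without biallelic replicate 3 (median -0.17), and their summed level was 76.9 to 102.4 RPM in wild type and 68.9 to 162.3 RPM in biallelic libraries. Erythroid genes were higher in 6 of 9 (median 0.21), with sums of 315.02 to 852.8 RPM and 301.2 to 1712 RPM, and without biallelic replicate 3 in 2 of 9 (median -0.36). Macrophage and leukocyte genes summed to 37.8 to 44.9 RPM and 38.2 to 47.7 RPM, and nerve and Schwann cell genes to 85.4 to 93.97 RPM and 81.1 to 98.4 RPM, with medians of 0.03 and 0.02. Those medians were -0.12 (3 of 11 higher) and -0.11 (5 of 14 higher) without biallelic replicate 3. In every one of these lists the groups overlapped. The part of these cell types in the gene differences above was not tested.

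Epithelial genes had a median of 0.00 over 25 genes, with 13 positive, and papilla and taste placode genes 0.03 over 16, with 10 positive. The numbers were 20 (median 0.13) and 10 (median 0.11) without biallelic replicate 3. Shh, the placode signal, was at 6.31 to 11.6 RPM in wild type and 9.18 to 19.6 RPM in biallelic libraries (0.46, SE 0.30), with overlap. Cell cycle genes were lower in 22 of 34 cases (64.7%, median -0.06), beside 62.0% of all genes, and in 30 of 34 (88.2%, median -0.10) without biallelic replicate 3, beside 67.5%. The p53 response genes were lower in 13 of 20 (65.0%, median -0.12), or 14 without that library (70.0%, median -0.08), beside the same 62.0% and 67.5%. Cytosolic ribosomal protein genes were higher in 20 of 30 (median 0.05), or 17 without that library (median 0.01). Nuclear genes of the respiratory chain had a median of -0.02. The cell cycle inhibitor Cdkn1a was at 6.41 to 11.9 RPM and 5.29 to 8.13 RPM (-0.33, SE 0.25), with overlap.

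The later stages give the same contrast in other animals. Of the 30 genes of smallest p, 29 were tested at P0 and 17 had the same sign there, and 28 were tested at P20 with 17 of the same sign. At P0 the sign was the same for 11 of 14 tested higher genes and 6 of 15 lower genes. At P20 it was the same for 7 of 14 and 10 of 14. Over all genes the same sign was found for 46.3% at P0 and 51.3% at P20. An unadjusted p under 0.05 with the same sign was found for 7 at P0 and 3 at P20, against 3.3% and 2.25% of all genes in either direction. At P0 the 7 were Plagl1, Slc7a10, Phactr2, Ctla4, Gm4294, Gm11808 and Ltv1, and at P20 the 3 were Plagl1, Slc7a10 and Phactr2. Hand2 reached it at P0 with the opposite sign. Of the 386 genes at an unadjusted p under 0.05 at E13.5, 367 were tested at P0. Among those 367, 152 (41.4%) had the same sign, below the share over all genes. At P0, 15 of them reached that p with the same sign and 15 with the opposite sign. At P20 the sign was the same for 196 of 362 (54.1%). Ctla4 had 1.12 (SE 0.23) at P0 and 0.16 (SE 0.18) at P20. The effect of Pappa2 at E13.5 minus that at P0 was -1.44 (SE 0.43), and minus that at P20 it was -1.07 (SE 0.43). Neither difference passed limma's adjusted threshold. Against P20 no gene of 10929 passed it either (0.0%), with 3.55% at an unadjusted p under 0.05.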

How the data were processed

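The authors deposited log2 RPM per gene, reads scaled to a library total with no length correction. Per the labels' protocols, 300 ng of total RNA went into each ribosome-depleted, strand-specific (dUTP) library with 10 PCR cycles. E13.5 RNA was extracted with an AllPrep kit and P0 and P20 RNA with TRIsure. The submitters' processing notes name TopHat2 2.1.0, Trim Galore 0.4.2 and the GRCm38 build. The counter, its strand setting and its handling of introns and of reads with several matches were not given in the sources used here. Values of genes that overlap on opposite strands are therefore uncertain.

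The deposited log2 values came out as whole reads (within 0.05 of a read, below 1000 reads) for 100% of values, with 0.9 reads standing for 0. Listed genes held 34.9% to 36.9% of each total. Every pair of the 6 libraries differed beyond sampling noise (lowest chi-square per degree of freedom 10.7).

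Genes at log2 RPM 0 or more in at least 3 of 6 libraries were fitted with limma 3.58.1 in R 4.3.3 (mean-variance trend, Benjamini-Hochberg over all tested genes, threshold 0.05). Nothing was added before the logarithm. Effects at E13.5, P0 and P20 were compared in 1 fit of 18 libraries over 10929 genes. P-values measure the spread between these libraries. The limma step was tested on simulated data. For each gene the simulation gave all libraries the same noise, with shifts larger than the fold changes of the genes of smallest p. It therefore cannot say how limma handles smaller effects or a library that stands apart.

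Named genes were Plagl1, the 15 of smallest p in each direction, the tested neighbours of Plagl1, up to 6 members of each described list at an unadjusted p under 0.05 or else 2 of smallest p, with members that define its role, the 12 genes farthest in each direction in the library that stood apart, and up to 8 of smallest p in each direction without it. Lists got counts and medians and no test. The members and lists were chosen with earlier results of these data known. Some genes that this rule selects are not reported here by name, and they stay in the counts and medians.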

Additional observations from a re-analysis of the deposited data

How the results depend on the processing

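Limma called 0 genes in every alternative except library weights, which called 667. The number at an unadjusted p under 0.05 (386) was 943 without the filter and 3168 with library weights, and 165 to 563 with a library left out. Higher genes were 24.1% of the 386, against 46.2% without the filter, 61.4% with median centring, 57.6% with quantile normalization, 57.3% and 57.2% with voom (TMM and median of ratios), 17.2% to 47.0% with a library left out, and 51.4% with median centring and without biallelic replicate 3, an alternative chosen after seeing the data. The same replicate numbers occur in both genotypes. Deviations of same-numbered libraries correlated at 0.16, 0.04 and 0.14, and those of differently numbered libraries at -0.14 to 0.06. Deviations were taken from the mean of each genotype, so for each gene they sum to 0 within a genotype. Positive values for same-numbered libraries therefore push the others down, and the contrast is partly built in. The labels name no shared litter or batch, and whether the numbers mark one was not tested. With the replicate number as a block, limma called 0 genes, 452 reached an unadjusted p under 0.05, 37.2% of them higher, and the smallest adjusted p was 0.159. The block gave 406 and 278 genes at an unadjusted p under 0.05 for E13.5 minus P0 and minus P20.

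For the differences between stages 0 genes were called in every alternative run. At an unadjusted p under 0.05, E13.5 minus P0 (583 genes) gave 1169 without the filter and 476 to 818 with a library left out. E13.5 minus P20 (388) gave 946 without the filter, 243 with the filter at 5 RPM and 346 to 636 with a library left out. The log2 fold change of Plagl1 ran from 0.96 to 1.36 with a library left out, and with library weights it was 0.97 with an adjusted p of 0.00119. The weights were 5.21 for wild type replicate 3, 3.49 for biallelic replicate 2 and 0.243 to 0.781 for the others. The weighted fit therefore leaned mainly on wild type replicate 3 and biallelic replicate 2.

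Of 67 named genes followed over the alternatives, 6 changed sign in some. With library weights Utrn was at -0.045, Stx11 at -0.150, Gpr126 at 0.305, Unc45b at 0.019 and Tnnt2 at 0.036. Aig1 was at 0.062 with median centring, 0.071 with quantile normalization and 0.052 with either voom scaling, and Gpr126 at 0.029, 0.033, 0.008 (TMM) and 0.009 (median of ratios). With median centring and without biallelic replicate 3, Stx11 was at -0.168, Aig1 at 0.150 and Gpr126 at 0.160. With a library left out the values ran from -0.038 to 0.138 for Utrn, -0.244 to 0.357 for Stx11, -0.070 to 0.074 for Aig1 and -0.196 to 0.084 for Gpr126. Of the 35 list medians, 19 turned sign without biallelic replicate 3 and 4 with median centring. The cause of these changes was not tested. Depth limits genes near 1 RPM most, such as Slc7a10 with 28 to 43 reads in each wild type library.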

Other observations

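Wild type replicate 1 was the library farthest from the rest on the second principal component, which held 24.4% of the variance, at 30.1 against -23.3 to 9.39 in the others. It had the highest level of Krt5, a basal keratin, at 168.4 RPM beside 64.4 to 98.7 RPM, and of the basal keratin Krt14, at 248.3 RPM beside 77.6 to 238.2 RPM. It had the lowest level of Prrx1, a mesenchymal homeobox gene, at 11.03 RPM beside 12.8 to 43.4 RPM. Meg3, a maternally expressed noncoding RNA, was also lowest there, at 39.5 RPM beside 75.3 to 156.7 RPM.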
